A study of Rattus norvegicus with 8 samples.

Results

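The genes described here are 8 transcription factors that mark or build segments of the nephron, the filtering and reabsorbing unit of the kidney: Hnf4a, Pax2, Pax8, Lhx1, Emx2, Esrrg, Gata2 and Tfap2b. They were chosen by name, and every probe set (a group of short probes for 1 transcript) whose platform annotation gives exactly 1 of these symbols was taken. All 8 genes were measured, by 15 probe sets, out of 14217 genes with 20826 probe sets that carry a single symbol. Kidney RNA came from male Wistar rats aged 8 weeks at the end of 24 days on a diet with 0.3% phosphorus (control) or 1.2% phosphorus (high phosphorus, HP), with 4 arrays per diet and 1 rat per array. The phosphorus was added as KH2PO4 in place of corn starch, so the HP group also took in more potassium. The authors picked 4 average rats of 5 per diet by urine volume and kidney phosphorus content. The spread between arrays, on which the p by limma rest, is therefore that of chosen animals and not of all rats on a diet. No transgene or drug is named in the labels.

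Transcription factors of this kind set which transporters and enzymes a tubule cell makes. HNF4A is a nuclear receptor needed for proximal tubule cells to mature, and it is also a main regulator of the liver. PAX2 and PAX8 are paired-box factors that found the renal lineage and remain on in parts of the adult tubule, while the LIM homeodomain factor LHX1 and the homeodomain factor EMX2 act in the early duct and nephron. ESRRG, an orphan nuclear receptor, acts on mitochondrial and transport genes of the distal nephron. GATA2 works in the collecting duct and in blood, mast and endothelial cells, and TFAP2B is a factor of the distal convoluted tubule.

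None of the 15 probe sets passed limma at an adjusted p under 0.05, where 2.95% of all 31042 tested probe sets were higher and 1.13% lower in the HP group. Hnf4a came nearest. All 3 of its probe sets had a lower HP mean, 2 of them had an unadjusted p under 0.05 (9.45% of all probe sets did with a lower and 9.53% with a higher HP mean), and in 1 of them the HP arrays all lay below the control arrays (5.81% of all probe sets ran so, and 7.09% the opposite way). The 2 probe sets of Pax8 had higher HP means with overlapping arrays, and 1 probe set of Esrrg was the single member called, as lower, by rank products, the test of the study's methods, while it had an adjusted p of 0.683 by limma.

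The sequences of greatest interest for these values are those in front of Hnf4a and Esrrg, the members with the smallest p by limma and by rank products, and they are shown to give their regulatory context. RefSeq promoter windows (build GRCr8, from 250 bases before to 50 bases after a start site) were listed for 6 of the 8 members, 10 windows in all, of which Hnf4a had 2 and Esrrg 4. The Hnf4a windows belong to alternative start sites that lie 35616 bases apart on the plus strand of chromosome 3. The probe sets were not assigned to either start site. Below are the 250 bases before both Hnf4a starts and before 1 Esrrg start, all on the plus strand, with capitals in the first for the motif AGATAA, which is bound by factors of the GATA family, and in the third for the AP-2 motif GCCNNNGGC. The middle window holds no match and is all in lower case. Of the 4 Esrrg windows, the one shown is the only one with a match of any motif searched.
Hnf4a chr3:172605970-172606219: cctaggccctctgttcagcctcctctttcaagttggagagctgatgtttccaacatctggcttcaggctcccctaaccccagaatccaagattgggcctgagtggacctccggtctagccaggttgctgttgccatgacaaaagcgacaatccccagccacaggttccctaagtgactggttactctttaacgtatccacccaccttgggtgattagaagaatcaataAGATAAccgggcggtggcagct
Hnf4a chr3:172641586-172641835: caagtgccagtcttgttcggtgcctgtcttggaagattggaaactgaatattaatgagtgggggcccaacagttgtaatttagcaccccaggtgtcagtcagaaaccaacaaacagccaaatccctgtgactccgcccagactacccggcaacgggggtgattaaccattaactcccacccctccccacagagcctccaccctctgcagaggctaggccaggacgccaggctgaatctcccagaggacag
Esrrg chr13:101744837-101745086: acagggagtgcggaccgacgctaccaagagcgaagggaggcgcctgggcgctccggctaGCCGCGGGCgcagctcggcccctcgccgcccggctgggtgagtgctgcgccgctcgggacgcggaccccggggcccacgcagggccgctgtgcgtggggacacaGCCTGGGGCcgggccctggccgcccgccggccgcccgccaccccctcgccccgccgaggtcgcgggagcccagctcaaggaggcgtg

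In these windows 5 motifs were searched on both strands. AGATAA, which factors such as GATA2 bind, began 22 bases before the first Hnf4a start, in 1 of the 10 member windows, and was present in 11.6% of all 33469 windows. GCCNNNGGC, the motif of AP-2 factors such as TFAP2B, was present in 4 of the 10 and in 15.1% of all windows. It began 191 and 87 bases before the Esrrg start shown, 135 bases before that of Gata2, 10 bases before that of Lhx1 and 22 bases after that of Pax8. This motif is itself made of G and C. The member windows that hold it had 61.3% to 75% G and C, and those without it 45.3% to 70.3%. The share of G and C in all windows was not counted. The letters CAAAGTC (HNF4A), AAGGTCA (estrogen-related receptors) and TAATTA (LIM and EMX homeodomains) were found in 0 of the 10 windows, against 4.61%, 4.61% and 5.36% of all windows. These are matches of letters, and binding was not measured.

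The deposited log-scale values, taken as log2, were summarized with the distribution free weighted (DFW) method, which pulls the arrays of a probe set towards each other. The arrays therefore differ mostly from the fifth decimal on. Each array is given below as its distance from the mean of the 4 control arrays in millionths of a log2 unit, and each difference between diets also in units of the pooled standard deviation (SD) within groups. Neither is a fold change. DFW values come without a detection call, so it cannot be said of any of these genes that it was absent. Means over the arrays served only to pick 1 probe set per gene or to leave out low ones, and no level of a gene is set against that of another. The SD within groups of the member probe sets ran from 0.616 to 611 millionths, with a median of 4.08, beside a median of 2.22 over all probe sets.

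**Figure D1:**
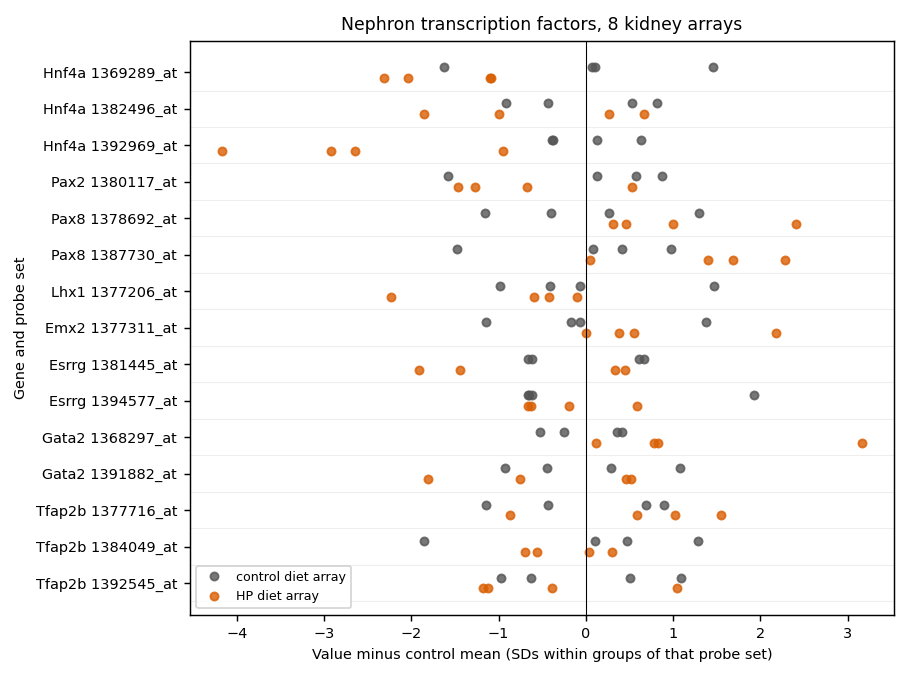
Values of the 15 probe sets on the 8 arrays. The horizontal axis gives each array's value minus the control mean in SDs within groups of that probe set, and each row is 1 probe set with control arrays in grey and HP arrays in orange. Hnf4a 1392969_at is the only row in which no orange point lies within the grey points, and the other 14 overlap.

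For Hnf4a, the nuclear receptor of proximal tubule and liver, probe set 1392969_at (mean of 11.98 in the control group) had the clearest difference. Its control replicates 1 to 4 stood at -1.2, 0.422, 2.0 and -1.23 millionths and its HP replicates 1 to 4 at -13.3, -8.42, -3.01 and -9.30. All 4 HP arrays were thus below all 4 control arrays, HP replicate 1 being the lowest and HP replicate 3 the nearest to the controls. HP minus control came to -8.51 millionths (SE 2.25, 4 arrays per diet). In SDs within groups the difference was -2.67, with a 95% interval from -4.27 to -1.07, at an unadjusted p of 0.00571 and an adjusted p of 0.0882 by limma. The exact two-sided permutation test gave 0.0286, the smallest p that the 70 arrangements of 8 arrays allow. Among the 8 fits that each left out 1 array it passed in 1, without HP replicate 3, where the difference was -10.3 millionths and the adjusted p 0.0319. After quantile normalization both its difference and its SD within groups were 0.

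At the second Hnf4a probe set, 1369289_at (control mean 7.83), control replicates 1 to 4 stood at 26.2, 1.25, -29.4 and 1.88 millionths and HP replicates 1 to 4 at -41.8, -36.6, -19.8 and -19.6. Here 3 control arrays lay above all HP arrays, but control replicate 3 fell within the HP range, so the groups overlapped. The difference was -29.4 millionths (SE 12.7), or -1.63 SDs with a 95% interval from -3.22 to -0.0489. Its unadjusted p was 0.045 and its adjusted p 0.249 by limma, and the exact permutation p was 0.0857. Probe set 1382496_at (control mean 7.74) gave 12.1, 7.90, -13.6 and -6.4 millionths in the control arrays and -14.8, -27.4, 9.97 and 3.87 in the HP arrays. Its HP replicates 1 and 2 were the lowest of the 8, while HP replicates 3 and 4 sat among the controls. The difference of -7.09 millionths (SE 10.5) was smaller than the SD within groups, at -0.478 SDs (interval from -2.06 to 1.11) and an adjusted p of 0.776. It shrank to -0.318 millionths without HP replicate 2 and was -12.8 without HP replicate 3. In RNA of whole kidney, fewer cells of a type and less RNA per cell cannot be told apart, for Hnf4a as for every gene below.

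Those probe sets whose arrays ran most like the Hnf4a probe sets were found by the mean absolute difference of scaled values over the 8 arrays. Each probe set was centred on its mean and divided by its SD over all 8 arrays, not by its SD within groups. Nearest to 1392969_at were Letm1 (mean difference 0.162), a mitochondrial inner membrane protein, Osbpl1a (0.173), of the oxysterol-binding protein family, and Gamt (0.178), the last enzyme of creatine synthesis. Each of these passed limma as lower, with adjusted p of 0.0455, 0.0482 and 0.0276. Nearest to 1369289_at were Gab2 (0.184), Pygm (0.209) and Rexo1 (0.223), with adjusted p of 0.259, 0.103 and 0.303. The likeness is a description over these arrays only and includes the difference between the diets.

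**Figure D2:**
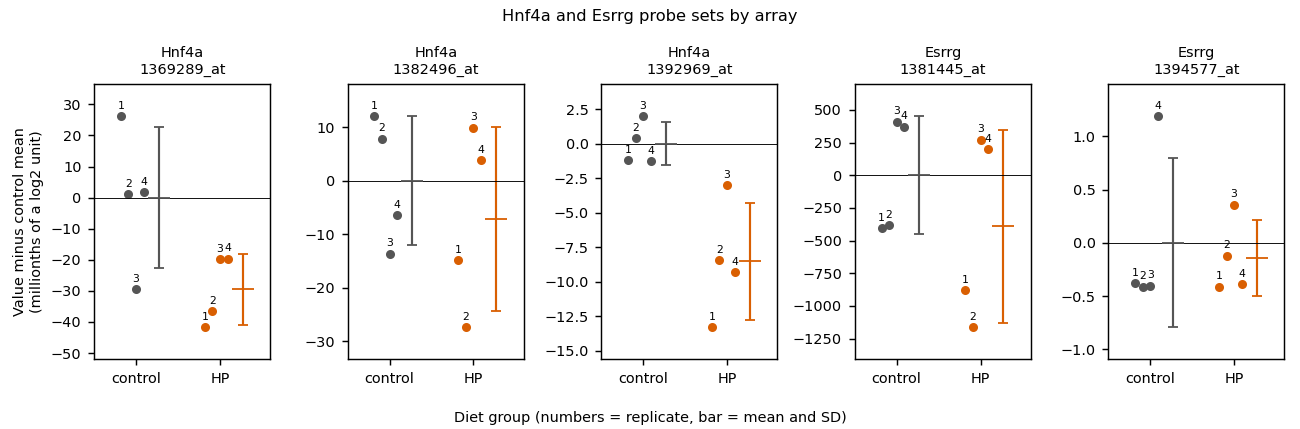
The 3 Hnf4a and 2 Esrrg probe sets by diet. The vertical axes give each array minus the control mean in millionths of a log2 unit, each panel on its own scale, with numbers for replicates and bars for mean and SD. In Hnf4a 1392969_at all HP arrays lie below the control arrays, and in Esrrg 1381445_at replicates 1 and 2 lie below replicates 3 and 4 in both diets.

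Esrrg, the nuclear receptor of the distal nephron, was the member with the widest spread. Probe set 1381445_at (control mean 8.86) stood at -404, -379, 411 and 372 millionths in control replicates 1 to 4 and at -878, -1165, 273 and 201 in HP replicates 1 to 4. In both diets replicates 1 and 2 were low and replicates 3 and 4 high, a pattern noticed after the values were seen. Replicates 1 and 2 lay below 3 and 4 in both diets in 2 of the 15 member probe sets and in 4.46% of all probe sets. Labels do not say whether replicate numbers mark a shared batch. The HP array of each number was below the control array of the same number, by -474, -786, -139 and -171 millionths, but the groups as such overlapped. Their means differed by -392 millionths (SE 432), or -0.642 SDs with an interval from -2.23 to 0.943. Limma gave an adjusted p of 0.683 and the exact permutation test a p of 0.371. Single arrays moved the value by much, to -135 millionths without HP replicate 2 and to -614 without HP replicate 3.

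Rank products, which order the raw differences of all 16 pairs of arrays, called this Esrrg probe set lower at a false discovery rate (FDR) of 0.0013, with 2.31% of all 31099 probe sets called lower and 3.40% higher. The SD of the probe set was at percentile 99.6 of all, and 595 of the 719 lower calls of rank products came from the tenth of probe sets with the largest SD, which held 50 of the 350 lower calls of limma. For both Hnf4a probe sets with an unadjusted p under 0.05, rank products gave an FDR of 0.055 (1369289_at) and 0.35 (1392969_at). The other Esrrg probe set, 1394577_at (control mean 10.46), had a spread 993 times smaller. Its control replicates 1 to 3 stood at -0.380, -0.410 and -0.400 millionths and replicate 4 at 1.19, and its HP arrays at -0.410, -0.120, 0.360 and -0.390. All HP arrays lay within or next to the control range, and the difference was -0.140 millionths (SE 0.435), or -0.227 SDs (interval from -2.12 to 1.66, adjusted p 0.928). Without control replicate 4 it was 0.257 millionths.

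The paired-box genes did not share a direction. Pax8 had higher HP means at both probe sets. In 1387730_at (control mean 7.29) control replicates 1 to 4 were at -9.04, 0.484, 6.0 and 2.55 millionths and HP replicates 1 to 4 at 10.3, 14.0, 0.302 and 8.58. There 3 HP arrays exceeded every control array, and HP replicate 3 lay among the controls. The difference was 8.30 millionths (SE 4.33), or 1.35 SDs with an interval from -0.233 to 2.94, at an adjusted p of 0.339 and an exact permutation p of 0.114. In 1378692_at (control mean 9.71) the control arrays were at -32.0, 35.9, 7.2 and -11.1 millionths and the HP arrays at 8.55, 66.5, 12.7 and 27.5. Only HP replicate 2 was above control replicate 2, the highest control, and the difference of 28.8 millionths (SE 19.5) came to 1.04 SDs (interval from -0.542 to 2.63, adjusted p 0.470). With 1 array left out the differences ran from 5.29 to 11.0 millionths (1387730_at) and from 16.3 to 40.8 (1378692_at). The direction of both Pax8 probe sets turned when each array was centred on its median, and that of 1387730_at also after quantile normalization. Centring lowered every HP minus control difference by the same 61.1 millionths, here and for each gene below. It thus had to turn every smaller positive difference and could turn no negative one.

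Pax2, the other paired-box member, had 1 probe set, 1380117_at (control mean 8.29). The control arrays were at -5.38, 1.95, 0.457 and 2.97 millionths and the HP arrays at -4.98, 1.79, -4.33 and -2.30. All HP arrays lay inside the control range, and the difference of -2.46 millionths (SE 2.41) was -0.720 SDs (interval from -2.32 to 0.875, adjusted p 0.640), or from -4.25 to -1.46 millionths with 1 array left out.

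The homeodomain genes of the early duct overlapped as well. For Lhx1, 1377206_at (control mean 7.65) gave 23.7, -1.05, -15.9 and -6.67 millionths in the control group and -9.66, -36.0, -1.64 and -6.73 in the HP group. HP replicate 2 was the lowest and control replicate 1 the highest, with the rest mixed, and the difference was -13.5 millionths (SE 11.4), or -0.836 SDs (interval from -2.42 to 0.749, adjusted p 0.575). For Emx2, 1377311_at (control mean 8.83) gave -5.1, -34.3, -2.0 and 41.5 millionths against 16.8, 0.188, 11.6 and 65.9. Each HP array was above the control array with its number, though the labels do not say that equal numbers form a pair. The groups overlapped through control replicate 4. The means differed by 23.6 millionths (SE 21.3), or 0.783 SDs (interval from -0.802 to 2.37, adjusted p 0.602), and the sign turned after centring on array medians and after quantile normalization. The difference was 9.50 millionths without HP replicate 4 and 37.4 without control replicate 4, and with 1 array left out that of Lhx1 ran from -18.8 to -5.62.

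Gata2 gave opposite signs at its probe sets. In 1368297_at (control mean 8.14) the control arrays were at -0.185, 0.268, 0.305 and -0.389 millionths and the HP arrays at 0.615, 0.583, 2.36 and 0.0853. Here 3 HP arrays exceeded all controls, HP replicate 3 by most, and HP replicate 4 lay among them. The difference was 0.911 millionths (SE 0.527), or 1.22 SDs (interval from -0.577 to 3.02), with an adjusted p of 0.454 and an exact permutation p of 0.0857. Its sign turned after centring on array medians, and the difference was 0.428 millionths without HP replicate 3. In 1391882_at (control mean 6.42) the control arrays ran from -3.77 to 4.42 millionths and the HP arrays from -7.36 to 2.11. That difference was -1.61 millionths (SE 2.89), or -0.394 SDs (interval from -1.99 to 1.20, adjusted p 0.824), and was 0.311 millionths without HP replicate 3, the lowest array.

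Tfap2b, the factor of the distal convoluted tubule, had 3 probe sets with 2 lower and 1 higher HP means, all overlapping. In 1377716_at (control mean 8.98) control arrays ran from -3.54 to 2.77 millionths and HP arrays from -2.70 to 4.8, a difference of 1.78 (SE 2.19) or 0.573 SDs (interval from -1.02 to 2.17, adjusted p 0.724) whose sign turned after centring on array medians. In 1384049_at (control mean 8.00) the ranges were -5.93 to 4.09 and -2.22 to 0.945, with a difference of -0.737 (SE 2.26) or -0.231 SDs (interval from -1.83 to 1.37, adjusted p 0.911). In 1392545_at (control mean 8.90) they were -2.68 to 3.02 and -3.26 to 2.89, with -1.13 (SE 1.95) or -0.409 SDs (interval from -2.01 to 1.19, adjusted p 0.818). The HP arrays of 1384049_at all lay inside the range of its control arrays, while those of the others reached past it on 1 side. Without control replicate 4 the difference of 1384049_at was 0.627, and with 1 array left out the others ran from 0.597 to 3.27 (1377716_at) and from -2.47 to -0.122 (1392545_at).

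Over all 15 probe sets the HP mean was lower in 10 (66.7%) and higher in 5, and it was lower in 57.7% of all tested probe sets. The median standardized difference was -0.39 SDs beside -0.21 over all, and the median without regard to sign was 0.720 beside 0.789. Adjusted p ran from 0.0882 to 0.928. Probe sets that limma called differed by at least 3.23 SDs, with a median of 4.17, and no member reached that size, the extremes being -2.67 (Hnf4a) and 1.35 (Pax8). Even the narrowest-reaching interval, that of Tfap2b 1384049_at, went down to -1.83 SDs.

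**Figure D3:**
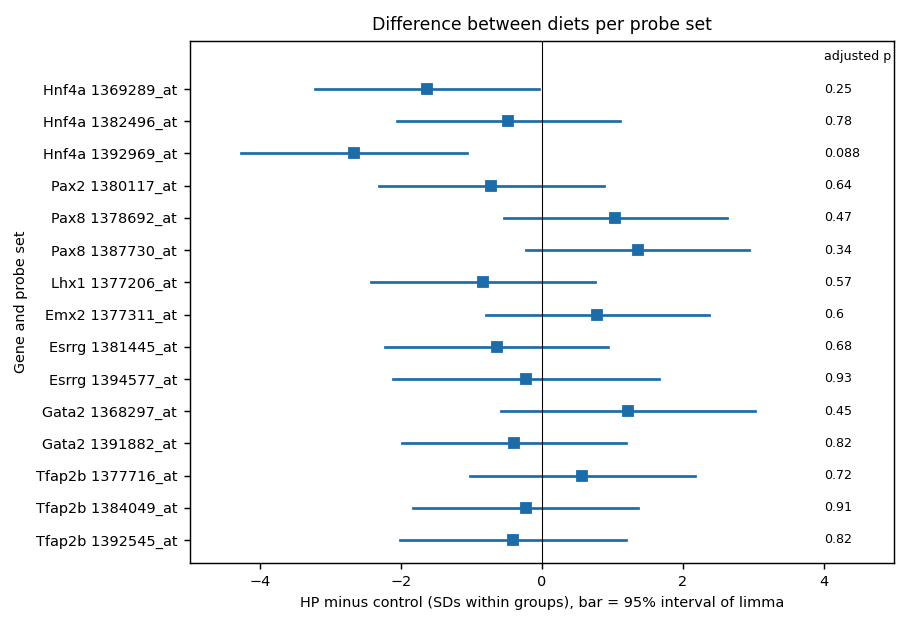
Difference between the diets for the 15 probe sets. The horizontal axis gives HP minus control in SDs within groups, squares are the estimates, bars the 95% intervals of limma, and adjusted p stand at the right. The intervals of Hnf4a 1369289_at and 1392969_at lie below 0 and those of the other 13 include it, while no adjusted p is under 0.05.

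Genes around the members were counted on 4 lists, with 1 probe set per gene, that of highest mean; of all genes so taken, 4.58% were called higher and 1.23% lower by limma. Of 33 measured genes on a list of other nephron transcription factors, 1 was called higher and 0 lower (7 had an unadjusted p under 0.05), with a median of -0.24 SDs. The one that rose was Sox4, a factor of progenitor cells, with a difference of 3.61 SDs (adjusted p 0.0372), which also stands on the list of tubular injury genes below and is counted there again. Its other probe sets had adjusted p from 0.0385 to 0.667, and in 2 of them the HP mean was lower. Hoxb7, of the ureteric bud and collecting duct, had a difference of -2.07 SDs (adjusted p 0.166). Of 19 measured paralogues of the members, limma called 0 in either direction, and 3 had an unadjusted p under 0.05, with a median of -0.75 SDs. Pax4, an islet factor, stood at -2.10 (adjusted p 0.154) and Emx1 at -1.91 (adjusted p 0.188).

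Of 17 partners and coregulators, 1 was called higher and 0 lower, with a median of 0.14 SDs. Lmo2, a LIM-only protein that joins GATA factors in blood and endothelial cells, rose by 3.56 SDs (adjusted p 0.0384), and Ldb2, a LIM domain-binding protein, was at 2.90 (adjusted p 0.0683; called higher by rank products at an FDR of 0.0136 and with the replicate block at 0.0266), the first turning sign after centring on array medians and the second after quantile normalization. Of 10 measured genes known to depend on HNF4A in liver or proximal tubule, 1 was called lower and 0 higher, with a median of -0.78 SDs. The HP mean was lower in 9 of them, beside 57.7% of all tested probe sets. Among the 10, Slc22a6, Slc22a8, Pck1 and Apom also stand on the proximal tubule list below and are counted there again. Apoc3, an apolipoprotein gene, was the one called lower, at -3.24 SDs (adjusted p 0.0495). Slc22a6, the organic anion transporter of the proximal tubule, was at -2.01 (adjusted p 0.168).

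Markers of the cells in which the members act were counted in the same way. Of 36 proximal tubule genes, 2 were called lower and 0 higher, and the median was -1.41 SDs. The HP mean was lower in 28 of them, beside 57.7% of all tested probe sets. An unadjusted p under 0.05 by limma was found for 11, beside 19% of all. Those called were Slc9a3, the sodium-proton exchanger of the brush border (-4.04 SDs, adjusted p 0.0273), and Nat8, an N-acetyltransferase (-3.23 SDs, adjusted p 0.0496). The study reported the phosphate transporters Slc34a1 and Slc34a3 as lower by rank products. On this list limma gave Slc34a3 -1.64 SDs (adjusted p 0.247). Slc34a1, through a probe set other than the study's, had -1.50 SDs (adjusted p 0.308). Of 10 genes of the thick ascending limb, Casr, the calcium-sensing receptor, alone passed, as lower (-3.94 SDs, adjusted p 0.0289), while 4 had an unadjusted p under 0.05, and the median was -0.78. Of 9 genes of the distal convoluted and connecting tubule, limma called 0 (2 had an unadjusted p under 0.05), with a median of -0.67 and Slc12a3, the thiazide-sensitive cotransporter, at -2.72 SDs (adjusted p 0.0822). Of 9 genes of collecting duct principal cells, 1 was called higher, Scnn1b, a subunit of the epithelial sodium channel (3.53 SDs, adjusted p 0.0442, turning sign after median centring and after quantile normalization), with a median of 0.32. On that list 2 had an unadjusted p under 0.05. All 7 measured genes of intercalated cells had a lower HP mean and limma called 0 of them (3 had an unadjusted p under 0.05), with a median of -1.42 SDs and Slc26a4, the anion exchanger pendrin, at -2.99 (adjusted p 0.0629). Slc26a4 was called lower by rank products (FDR 0.0059) and by limma with 1 probe set per gene (adjusted p 0.0464). Of 7 podocyte genes limma called 0 (1 had an unadjusted p under 0.05), with a median of -0.08 and Cd2ap, an adaptor of the slit diaphragm, at 2.86 SDs (adjusted p 0.0727, turning sign after median centring). With each of the 8 arrays left out in turn, the calls of Sox4, Lmo2, Apoc3, Slc9a3, Casr and Scnn1b were lost in 7 fits and that of Nat8 in 8.

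Markers of injury and of other cells moved with the diet beside these values. Of 16 genes of tubular injury 11 were called higher, of 15 macrophage genes 10 and of 11 fibroblast genes 7, and 0 genes of these lists were called lower, with medians of 4.62, 3.48 and 5.31 SDs. Of all genes, 4.58% were called higher. The lists were chosen with earlier results of these data known, so the counts are a description only. The injury marker Spp1 stood at 9.42 SDs, the leukocyte gene Ptprc at 6.20 and the collagen gene Col3a1 at 8.00. The summed values of the list ran from 142.71 to 142.81 in the control arrays and from 143.44 to 143.71 in the HP arrays for injury, from 117.998 to 118.003 and from 118.016 to 118.030 for macrophages, and from 91.9505 to 91.9528 and from 91.9605 to 91.9632 for fibroblasts, with every HP array above the control arrays. The injury sum rose mainly through Havcr1 (422974 millionths) and Spp1 (333069), the next being Clu (20290). The proximal tubule sum lay lower in every HP array (409.65867 to 409.65945, control 409.65973 to 409.66035). It fell mainly through Nat8 (-660 millionths), the next being Slc34a3 (-133). That of the other nephron factors lay higher in every one (270.23141 to 270.23192, control 270.23069 to 270.23112). This sum rose mainly through Sox4 (503 millionths), also an injury gene, and Elf3 (187), while 19 of the 33 factors had a lower HP mean. The part of injury, macrophage and fibroblast genes in the values of Hnf4a and the other members was not tested. Of the endothelial (10), mast and erythroid (11) and urothelial (5) genes measured, where a gene such as Gata2 could also be made, limma called 0. At an unadjusted p under 0.05 there were 0, 1 and 0 of them, with medians of -0.04, -0.72 and 0.58 SDs. The genes of smallest p on each list were Plvap at 1.25, Tpsab1 at -1.68 and Upk1a at 0.98 SDs, with adjusted p of 0.43, 0.24 and 0.50, and the signs of Plvap and Upk1a turned after median centring.

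**Figure D4:**
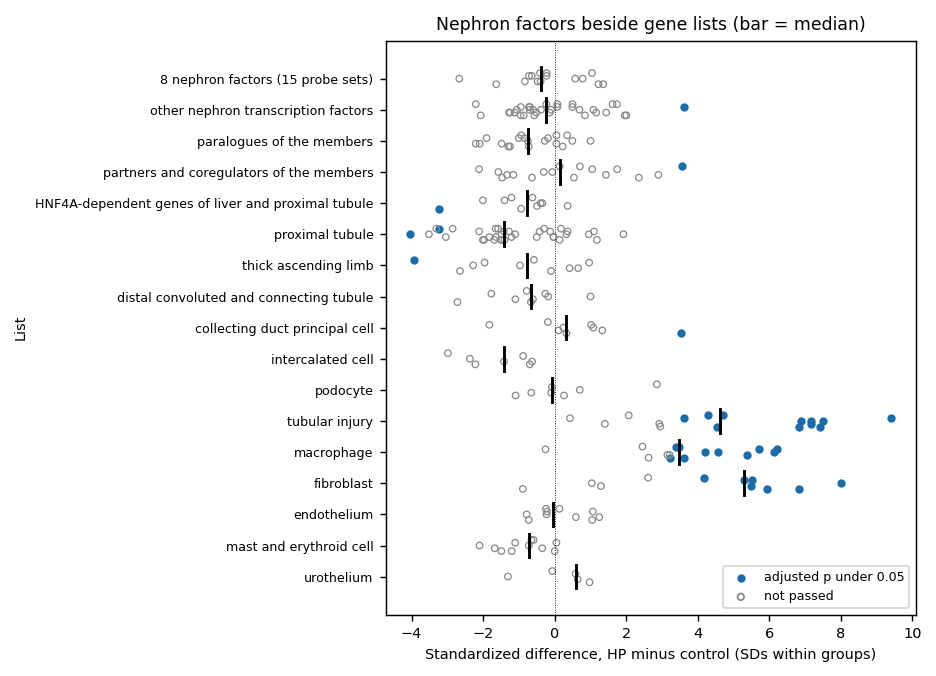
The 15 member probe sets beside 16 gene lists. The horizontal axis gives HP minus control in SDs within groups, each point is a probe set or gene, filled where limma gave an adjusted p under 0.05, and bars mark medians. The members centre at -0.39 with no filled point, proximal tubule genes at -1.41, and injury, macrophage and fibroblast genes at 4.62, 3.48 and 5.31.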

How the data were processed

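Kidney RNA of 4 control and 4 HP rats, grouped by the sample titles and 1 per array, was labelled as biotin aRNA and hybridized to Affymetrix whole-genome rat arrays. The authors summarized each probe set over all 8 arrays with DFW, and the deposited values, on a log scale of unstated base, were read as log2 and used unchanged. Such values carry no depth, and the number of arrays limits their precision. Genes come from the platform annotation: of 31099 probe sets 20826 had 1 symbol, 436 several and 9780 none, and 57 are Affymetrix controls.

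The 31042 probe sets that are not controls were tested with limma 3.58.1 (R 4.3.3), HP minus control, with Benjamini-Hochberg adjustment over all of them and a threshold of 0.05. All p by limma rest on the spread between arrays. Exact permutation tests were two-sided over 70 arrangements. Rank products followed the study's methods (16 pairs, 1000 permutations, FDR under 0.05, all probe sets). On data simulated for 4 arrays per diet with 200 of 31042 probe sets shifted, limma recovered 22 shifts of 4 SDs and 196 of 8 SDs, with 0 and 15 false calls. Alternatives were no moderation, trend and robust moderation, array weights, the replicate number as a block, quantile normalization, centring on the array median, removal of the lowest 25% of probe sets, 1 probe set per gene, rank products, and leaving out each array; rank products without each array were added after the data were seen.

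The members and the 16 lists were chosen with earlier results of these data known. All member probe sets are named, with the gene or genes of smallest p from each list and the 3 probe sets most alike for the members of smallest p. Other genes of low p on the lists are mostly not named. Other steps used Python 3.11.15 with matplotlib 3.10.9, scipy 1.17.1, pandas 2.3.3 and numpy 2.4.6.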

Additional observations from a re-analysis of the deposited data

Results flagged for a closer look

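In groups of 4 arrays, the gap between an extreme array and its nearest neighbour was divided by the range of the group, and 3 of 72 groups exceeded Dixon's critical value for groups of this size, where chance gives about 1 in 20. Among the members, with 30 groups, it was 1: for Esrrg 1394577_at, control replicate 4 lay 1.19 millionths of a log2 unit above the control mean, with a ratio of 0.981. For Hoxb7 1388287_at, HP replicate 1 was the lowest, at -5.47 millionths, with a ratio of 0.837. For Col3a1 1370959_at, control replicate 1 was the lowest, at -755 millionths, with a ratio of 0.902.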

How the results depend on the processing

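The count of members called by limma was 0 higher and 0 lower, and it stayed at 0 in both directions with no moderation, trend and robust moderation, array weights, centring on array medians, removal of the lowest 25% of probe sets and 1 probe set per gene. With each array left out in turn it ran from 0 to 0 higher and from 0 to 1 lower, the 1 being Hnf4a 1392969_at without HP replicate 3. Quantile normalization gave 1 higher (Gata2 1368297_at) and 2 lower (Lhx1 1377206_at, Tfap2b 1384049_at). After it 8 of the 15 member probe sets and 49.2% of all had an SD of 0 within diets, all 3 called members among them, so these calls rest on no measured spread. In 6 member probe sets, Hnf4a 1392969_at among them, the difference between the diets was then 0. Rank products gave 1 lower (Esrrg 1381445_at), and from 1 to 2 lower with each array left out, Hnf4a 1369289_at joining without control replicate 3. What the replicate numbers mark is not given in the labels. The deviations of arrays with the same number correlated at 0.00148 to 0.121, and 5 of 8 arrays were closest to their own number. With the replicate block 0 members were called higher and 0 lower, and over all probe sets 254 higher and 115 lower instead of 915 and 350.

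Over all probe sets the calls were 316 higher and 7712 lower after quantile normalization, 78 and 19 after median centring, 522 and 171 without moderation, and 339 to 672 higher and 79 to 219 lower with 1 array left out. The mean of the array medians was 61.1 millionths higher in the HP group, but HP replicate 1 had the lowest median of the 8 arrays, and without HP replicate 2, the highest, the difference was 29.7. Median centring takes these 61.1 millionths off every difference, so that every smaller positive one turns and no negative one can. These turns therefore say nothing about single genes. Median centring turned Pax8 to -32.2 (1378692_at) and -52.7 (1387730_at) millionths, Emx2 to -37.4, Gata2 1368297_at to -60.1, Tfap2b 1377716_at to -59.3, Lmo2 to -24.2, Scnn1b to -56.4, Cd2ap to -52.7, Plvap to -60.0 and Upk1a to -54.7. Quantile normalization turned Pax8 1387730_at to -19.1, Emx2 to -69.1, Ldb2 to -205, Scnn1b to -23.4 and Upk1a to -119. Among the list genes named, it set the differences of Apoc3, Slc22a6 and Pax4, for example, to 0. With 1 array left out, Esrrg 1394577_at ran from -0.307 to 0.257, Gata2 1391882_at from -2.87 to 0.311 and Tfap2b 1384049_at from -2.71 to 0.627, the highest without control replicate 4, HP replicate 3 and control replicate 4.

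The list calls of Sox4 and Lmo2 held only without HP replicate 3 among the 8 fits with 1 array left out, as did that of Slc9a3. Those of Casr, Scnn1b and Apoc3 held only without control replicate 3, control replicate 2 and control replicate 4, and that of Nat8 in none. After median centring no call of these genes remained. The counts of higher genes on the injury, macrophage and fibroblast lists ran from 7 to 11, 4 to 12 and 6 to 7 with 1 array left out and from 5 to 13, 1 to 13 and 1 to 8 under the other alternatives. Of the other nephron factors, quantile normalization called 11 lower. In the simulation most shifts of 4 SDs were missed by limma. Far fewer probe sets were shifted there than the 1265 that limma called in the measured data. The smallest difference called in the measured data was 3.23 SDs. The adjustment depends on the p of all probe sets, so the simulation cannot tell how often limma would miss 4 SDs in these data.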
